A study of Mus musculus with 2 samples.

Results

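Glutathione transferases, aldo-keto reductases and aldehyde dehydrogenases were compared between supportive and non-supportive intestinal subepithelial myofibroblasts (ISEMFs) of the mouse. Members were all protein-coding genes whose symbol names a cytosolic or mitochondrial glutathione transferase (Gsta, Gstk, Gstm, Gsto, Gstp, Gstt or Gstz), a microsomal transferase (Mgst), an aldo-keto reductase (Akr) or an aldehyde dehydrogenase (Aldh). Aldh1a1, Aldh1a2 and Aldh1a3, which make retinoic acid, were left out. This rule gave 59 of the 22379 protein-coding genes among 37309 genes listed. The rule used symbols only and no measured value, but it was chosen with earlier results of these data known.

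RNA sequencing was performed on 1 library of supportive ISEMFs and 1 library of non-supportive ISEMFs, to look for genes by which ISEMFs support epithelial stem cells. Supportive ISEMFs were grown from the small intestine of 5-day-old C57BL/6 neonates, and non-supportive ISEMFs from that of 2-month-old C57BL/6 adults. Both were wild type, were isolated in the same way and were expanded in medium with fetal bovine serum, insulin, transferrin and epidermal growth factor. The number of mice behind each library and the culture passage of the sequenced cells are not stated in the methods. The deposited table tags the supportive sample with P16 and the non-supportive one with P3, which no source used here explains, so a difference in passage cannot be told apart from the rest either. With 1 library each, no difference has a replicate check and no test between populations was possible. Each ratio therefore compares 2 libraries, and age, support of the epithelium and culture cannot be told apart.

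The supportive library held 50674472 reads on genes and the non-supportive library 49615497. Levels are given as RPKM, the reads of a gene scaled to its exon length and to the size of the library, so that genes can be compared with each other. The myofibroblast markers Acta2, Vim, Tagln, Col1a1 and Col1a2 lay between 41.6 and 1410 in both libraries. Desmin (Des) stood at 0.575 and 3.40. The summed RPKM of 8 macrophage markers was 9.46 in supportive and 126 in non-supportive ISEMFs, and Ptprc, Tyrobp and Emr1 had no read in the supportive library. Of 15 epithelial markers, Lgr5 (7.22 and 0.00443) and Krt20 (0.0799 and 3.13) reached an RPKM of 1 in either library, while Alpi, Chga, Fabp1 and Sis had no read in both. None of 5 endothelial or 4 mesothelial markers reached 1. In RNA from a whole culture, fewer cells of a type and less RNA per cell cannot be told apart.

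Glutathione transferases join the tripeptide glutathione to reactive compounds, so that they can be exported and removed. Aldo-keto reductases use NADPH to reduce aldehydes and ketones, steroids and prostaglandins among them, to alcohols, and aldehyde dehydrogenases oxidize aldehydes to acids. Many genes of these families stand side by side in the genome as near copies, and many are known to be induced through the transcription factor Nrf2 or the aryl hydrocarbon receptor. In the intestine they are best known from the epithelium, which meets food-borne compounds first.

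Because near copies share sequence and the authors kept only reads with a single place in the genome, 3 pairs of neighboring genes are shown first, 2 that share most of their bases and 1 that shares fewer. The first 120 coding bases of Gstp1 and Gstp2, the pi-class transferases on chromosome 19 (minus strand; genes at chr19:4035411-4037921 and chr19:4040291-4042221, mm9), differ at 6 positions, here in capitals, and share a run of 63 bases, longer than the 50-base reads.
Gstp1: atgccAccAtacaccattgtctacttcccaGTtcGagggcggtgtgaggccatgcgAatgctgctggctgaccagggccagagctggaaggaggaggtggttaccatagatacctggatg
Gstp2: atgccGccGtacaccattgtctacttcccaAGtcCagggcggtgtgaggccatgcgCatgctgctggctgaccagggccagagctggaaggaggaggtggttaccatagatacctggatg
The same stretch of Akr1c12 and Akr1c13, on chromosome 13 (chr13:4267418-4278679, minus strand, and chr13:4190430-4204842, plus strand), differs at 2 positions and shares a run of 87 bases.
Akr1c12: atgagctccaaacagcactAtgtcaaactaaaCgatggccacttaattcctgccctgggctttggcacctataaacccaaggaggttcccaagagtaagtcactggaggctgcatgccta
Akr1c13: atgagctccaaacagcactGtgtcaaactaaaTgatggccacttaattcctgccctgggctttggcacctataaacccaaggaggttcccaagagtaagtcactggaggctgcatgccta
Gstt1 and Gstt3, theta-class neighbors on chromosome 10 that carry some of the larger ratios below, differ at 27 positions, with no shared run over 18 bases.
Gstt1: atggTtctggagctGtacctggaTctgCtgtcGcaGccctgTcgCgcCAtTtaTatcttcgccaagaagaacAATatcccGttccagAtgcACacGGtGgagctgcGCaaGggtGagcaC
Gstt3: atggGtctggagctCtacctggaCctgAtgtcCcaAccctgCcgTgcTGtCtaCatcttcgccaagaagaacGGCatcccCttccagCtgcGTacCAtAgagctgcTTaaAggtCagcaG
These are spliced coding bases, 5′ to 3′, from the GENCODE vM1 transcripts, and capitals mark the bases that differ from the partner.

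To place the counts on this footing, every 50-base window of each member's exons was searched in the mm9 genome. A window counted as unique when no other place matched it with up to 2 mismatches, the number the authors allowed per read. Of the 59 members, 43 had at least 80% unique windows. The lowest shares were in Gstp2 (0%), Gsta1 (0%), Gstp1 (6.15%) and Gsta2 (22.4%). Gstt1, Gsta4 and Mgst1 were unique in 100% of their windows, Akr1c14 in 99.8% and Akr1c18 in 98.3%. A read placed more than once was left out of the counts, so the levels of the former 4 may be too low. How a read with 1 exact place and another within 2 mismatches was treated is not stated. By exact matches alone, the unique shares were 15.8% in Gstp2, 11.4% in Gsta1, 20.1% in Gstp1 and 52.4% in Gsta2.

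**Figure D1:**
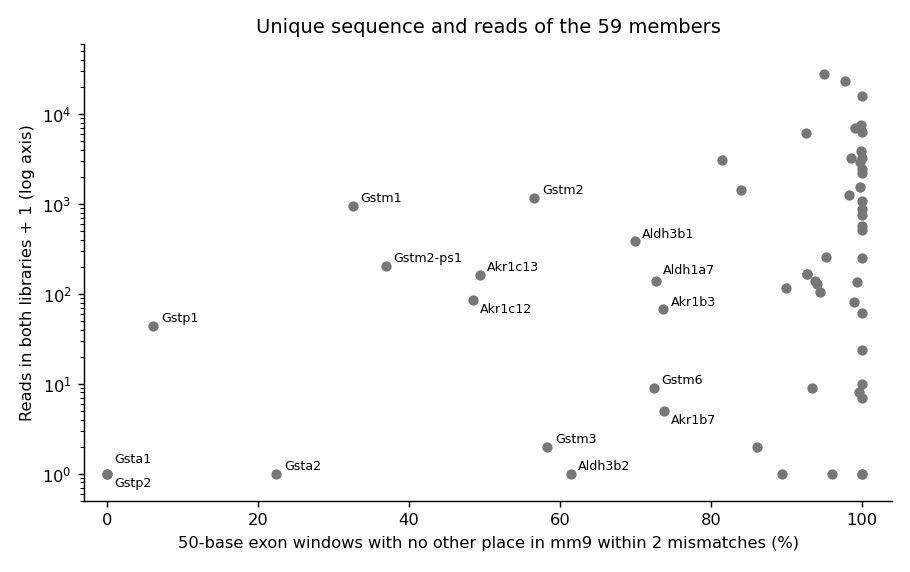
Reads of each of the 59 members summed over both libraries plus 1 (vertical, log axis) against the share of its 50-base exon windows with no other place in mm9 within 2 mismatches (horizontal, percent). Each point is 1 member, and the 16 under 80% are named; Gsta1 and Gstp2 sit at 0% and without a read.

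Of the 59 members, 51 had at least 1 read and 29 reached an RPKM of 1 in at least 1 library, the minimum for a call. Differences are given as the log2 ratio of supportive over non-supportive RPKM after 0.1 was added to each, and a member was counted as higher or lower when this passed 2-fold. Of the 29, 9 were higher in supportive ISEMFs, 6 were lower and 14 were under 2-fold. The 15 past 2-fold made 51.7% of the 29, against 18.2% of the 9110 protein-coding genes at the same minimum. By direction, 31.0% of members were higher, against 9.25% of all genes, and 20.7% were lower, against 8.98%. The median log2 ratio was 0.36 for members and −0.07 for all genes, and the median size of the ratio without its sign was 1.07 and 0.41. Of the 15, 13 passed 2-fold with their whole 95% counting interval. These 13 of the 29 stand beside 15.9% of all genes that did so.

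**Figure D2:**
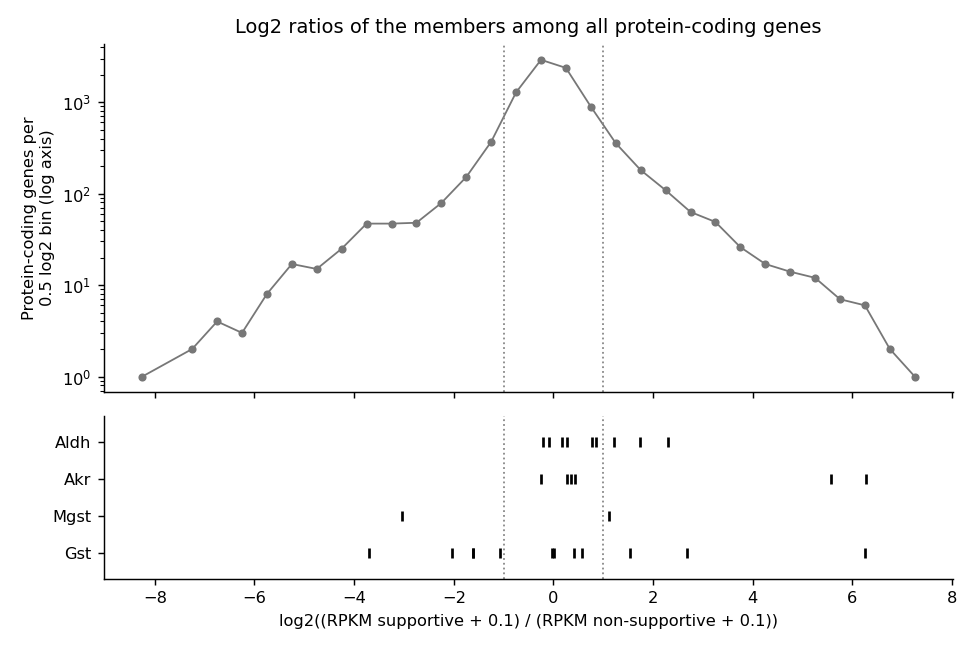
Upper panel, number of protein-coding genes at or above the minimum RPKM of 1 per 0.5-wide bin of the log2 ratio (log axis). Lower panel, the 29 expressed members by family, 1 tick each, on the same horizontal axis; dotted lines mark 2-fold, 9 members lie beyond the right line and 6 beyond the left.

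Counts by family and direction were as follows, beside 9.25% of all genes higher and 8.98% lower. Of 14 expressed transferases, cytosolic and microsomal together, 4 were higher (28.6%), 6 were lower (42.9%) and 4 were under 2-fold. Of 15 expressed aldo-keto reductases and aldehyde dehydrogenases, 5 were higher (33.3%) and none was lower. With only 15 genes, none lower is not far from the 8.98% of all genes. Summed RPKM of the Gst genes was close in both libraries, at 64.2 in supportive and 68.4 in non-supportive ISEMFs. The Aldh genes summed to 85.9 and 46.9, and the Akr genes to 121 and 88.2. The Mgst genes were low, at 1.47 and 3.05.

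The nearly equal Gst sums were made of different members. Gsto1 made 50.8% of the Gst RPKM in non-supportive and 13.0% in supportive ISEMFs, whereas Gstt1 made 0.169% and 25.4%. Gstt3 made 2.39% and 17.1% in the same order. By class, theta summed to 27.4 in supportive and 1.89 in non-supportive ISEMFs, omega to 8.76 and 36.2, alpha to 0.905 and 8.32, and mu to 19.5 and 13.1. The Gst sums hold Gstm2-ps1, named as a pseudogene, at 9.89% in supportive and 6.93% in non-supportive ISEMFs. They may be too low for genes with few unique windows, such as Gstp1 (6.15%), Gstp2 (0%), Gstm1 (32.5%) and Gstm2 (56.6%).

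**Figure D3:**
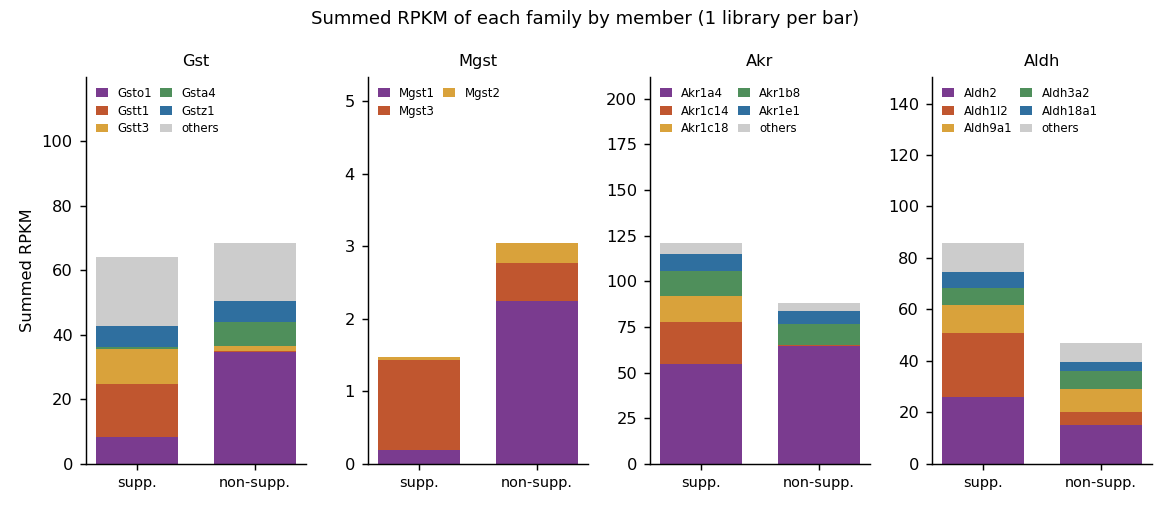
Summed RPKM of each family (vertical) in the supportive and the non-supportive library, stacked by the 5 members of highest RPKM and, where more exist, all others in gray. The vertical scale differs between panels; the Gst bars reach 64.2 and 68.4 with different members, and the Aldh bars 85.9 and 46.9.

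The largest differences were in steroid-reducing and theta-class enzymes higher in supportive ISEMFs. Akr1c14, a 3α-hydroxysteroid dehydrogenase (ENSMUSG00000033715, chr13:4048257-4089668, plus strand), had 7487 reads in supportive and 62 in non-supportive ISEMFs. Its RPKM was 22.7 and 0.194, a 117-fold difference (95% counting interval 91.4 to 153), and its log2 ratio of 6.28 ranked 4 among the 9110 genes. Counting intervals here are exact Clopper-Pearson intervals of the reads, and they cover counting error only, not the spread between cultures. Gstt1, which conjugates small halogenated compounds (ENSMUSG00000001663, chr10:75246558-75261329, minus strand), had 2178 and 15 reads, or an RPKM of 16.3 and 0.116. It was 141-fold higher (85.4 to 253) and ranked 5. Akr1c18, the 20α-hydroxysteroid dehydrogenase that inactivates progesterone (ENSMUSG00000021214, chr13:4131861-4149900, minus strand), had 1237 and 17 reads. Its RPKM was 14.3 and 0.203, 70.7-fold higher (44.0 to 122), which ranked 14. These 3 genes were thus expressed well above the minimum in supportive ISEMFs and lay far under it in non-supportive ones. Of the markers of glia, S100b was also higher in supportive ISEMFs (6.69 and 0.116), while Sox10 had no read in both libraries. Their part in these differences was not tested.

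Gstt3, the neighbor of Gstt1, had 2811 reads in supportive and 406 in non-supportive ISEMFs. Its RPKM was 11.0 and 1.63, a 6.73-fold difference (6.06 to 7.48). Of its exon bases, 19.9% also lie in an overlapping gene on the same strand, so reads there could be assigned to either or to none. Aldh1l2, the mitochondrial 10-formyltetrahydrofolate dehydrogenase of folate metabolism, had 19382 and 3795 reads. Its RPKM of 24.7 and 4.97 gave 4.96-fold (4.79 to 5.14). It was the second largest Aldh gene in supportive ISEMFs, with 28.8% of the family's RPKM there and 10.6% in non-supportive ones.

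The other 4 higher members were lower in level. Aldh3b1, which oxidizes lipid-derived aldehydes, had 303 and 78 reads (RPKM 2.09 and 0.554) and was 3.78-fold higher (2.93 to 4.91). Gstm2, a mu-class transferase, had 889 and 285 reads (4.94 and 1.63) and was 3.03-fold higher (2.65 to 3.48). Aldh6a1, which acts in the breakdown of valine and thymine, had 1734 and 705 reads (4.56 and 1.91) and was 2.39-fold higher (2.19 to 2.61). All 3 had intervals wholly above 2-fold, although 56.6% of the windows of Gstm2 and 69.9% of those of Aldh3b1 were unique. Mgst3, a microsomal enzyme, had 98 and 40 reads (1.25 and 0.525). Its 2.38-fold difference had an interval of 1.63 to 3.53, which reached below 2.

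**Figure D4:**
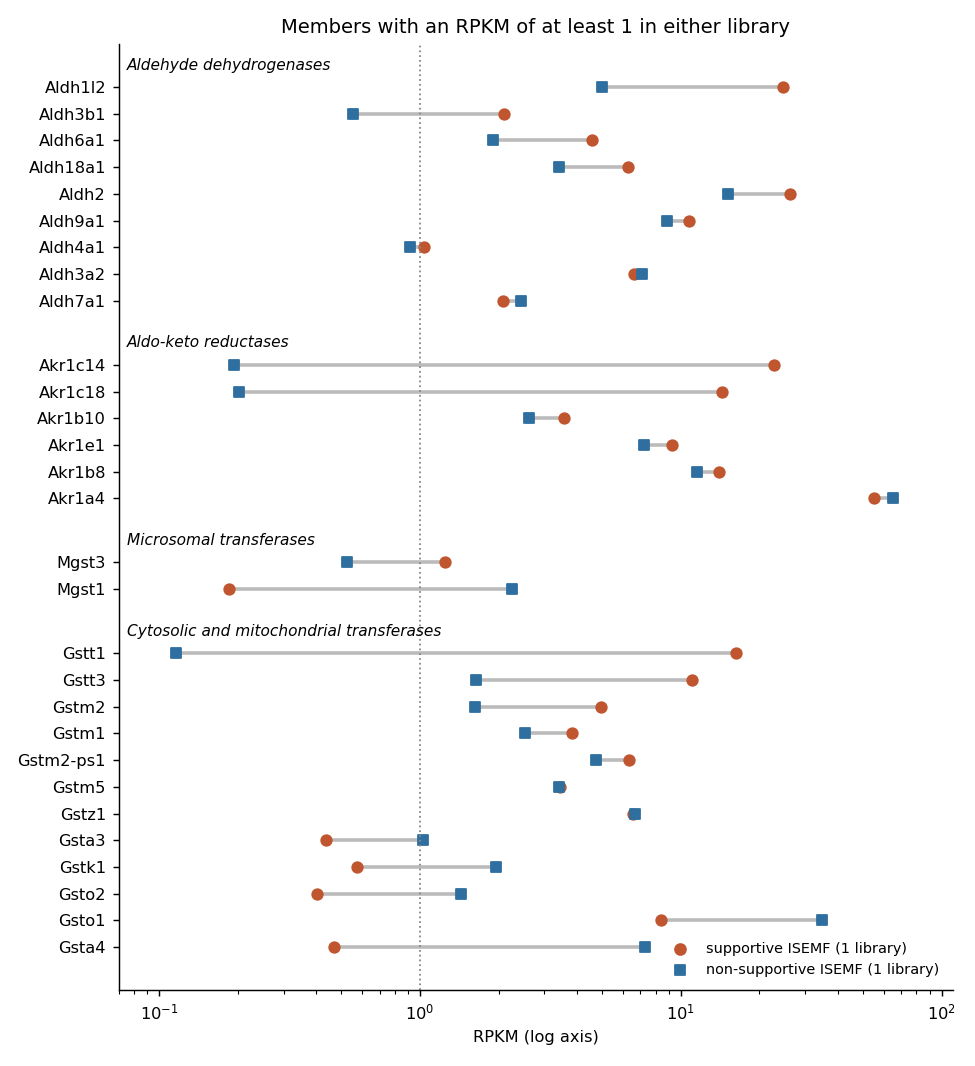
RPKM (log axis) of the 29 members at 1 or more in either library, grouped by family and ordered by log2 ratio, with circles for the supportive and squares for the non-supportive library. The dotted line marks an RPKM of 1; the widest gaps are those of Akr1c14, Gstt1 and Akr1c18, with circles at 22.7, 16.3 and 14.3.

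Of the 6 members lower in supportive ISEMFs, all were transferases. Gsta4, which conjugates the lipid peroxidation product 4-hydroxynonenal (chr9:78039773-78057155, plus strand), had 32 reads in supportive and 485 in non-supportive ISEMFs. Its RPKM was 0.468 and 7.30, 15.6-fold lower (10.9 to 23.1). Mgst1, a membrane-bound transferase and peroxidase (chr6:138088837-138105276, plus strand), had 59 and 697 reads. Its RPKM was 0.185 and 2.25, 12.2-fold lower (9.31 to 16.1), and its share of the Mgst sum was 12.6% and 73.8%. Gsto1, an omega-class enzyme that also reduces dehydroascorbate (chr19:47929460-47939280, plus strand), had 1400 and 5653 reads. Its RPKM of 8.36 and 34.7 made it the transferase of highest level in non-supportive ISEMFs, 4.15-fold above supportive ones (3.92 to 4.41).

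The remaining lower members were at low level. Gsto2, the neighbor of Gsto1, had 56 and 195 reads and was 3.58-fold lower (2.65 to 4.91). Gstk1, the kappa-class enzyme of mitochondria and peroxisomes, had 38 and 126 reads and was 3.41-fold lower (2.36 to 5.04). Gsta3, an alpha-class enzyme that also isomerizes steroids, had 50 and 114 reads, and its interval (1.67 to 3.34 around 2.35-fold lower) reached below 2. The 7 macrophage markers at an RPKM of 1 or more were all lower in supportive ISEMFs as well, but 2 libraries cannot show whether genes vary together. The highest of these, Lyz2, was at 6.31 and 72.7, and Tyrobp at 0 and 30.0. Smooth muscle markers summed to 357 and 593, and 3 of 5 were lower, with Myh11 at 26.3 and 108, Cnn1 at 78.6 and 187 and Des as given above, while Actg2 (247 and 292) and Smtn (4.88 and 3.16) were under 2-fold. The part of either marker list in the lower transferases was not tested.

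The member of highest level in both populations differed little. Akr1a4, the aldehyde reductase that also serves ascorbate synthesis in the mouse, had 13086 and 15033 reads. Its RPKM was 54.8 in supportive and 64.8 in non-supportive ISEMFs, 1.18-fold lower (1.15 to 1.21), and it made 45.3% and 73.5% of the Akr sum. Aldh2, the mitochondrial enzyme that clears acetaldehyde, had 10129 and 5721 reads. Its RPKM of 26.1 and 15.2 gave 1.72-fold higher (1.67 to 1.78), under the threshold with its whole interval. Aldh18a1, which makes the precursor of proline, had 2135 and 1131 reads (6.27 and 3.42) and was 1.83-fold higher (1.71 to 1.97).

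Other well expressed members were also close. Aldh9a1, of carnitine synthesis, was at 10.7 and 8.85, and Aldh3a2, the fatty aldehyde dehydrogenase, at 6.63 and 7.11. Akr1b8 was at 14.0 and 11.6, and Akr1e1 at 9.27 and 7.20. Gstz1, the zeta-class enzyme of tyrosine breakdown, had 773 and 768 reads and an RPKM of 6.53 and 6.68, 1.02-fold lower with an interval from 0.924 to 1.13, which spans 1. The enzymes of amino acid breakdown Aldh4a1 (1.04 and 0.916) and Aldh7a1 (2.09 and 2.43) stayed near the minimum. In the mu class, Gstm5 was at 3.44 and 3.41 and Gstm1 at 3.82 and 2.52. Gstm2-ps1, listed as protein coding and named as a pseudogene, was at 6.35 and 4.74 from only 117 and 85 reads on 258 exon bases.

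Several genes stand in clusters, in which some neighbors differed alike and others did not. On chromosome 13, 8 Akr1c genes and Akr1e1 span 560 kb. Akr1c14 and Akr1c18, at its first end, had log2 ratios of 6.28 and 5.58, while Akr1c13, next in order, had 86 and 76 reads and a log2 ratio of 0.12. Akr1c19 had 81 and 55 reads, Akr1c20 and Akr1c21 at most 3 in a library, and Akr1c6 none. Akr1c12, in the same cluster, differed in the same direction as Akr1c14 and Akr1c18, with 70 and 14 reads, but stayed under the minimum RPKM. Akr1c12 and Akr1c13 each had under 80% unique windows, so their levels may be too low. In the 60.8-kb Gstt cluster, Gstt3 and Gstt1 were higher, whereas Gstt2 had 10 and 13 reads and Gstt4 none. The 2 omega genes, within 31.4 kb, were both lower. Of the 4 Akr1b genes in 119 kb on chromosome 6, Akr1b8 and Akr1b10 were expressed, and neither passed 2-fold.

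**Figure D5:**
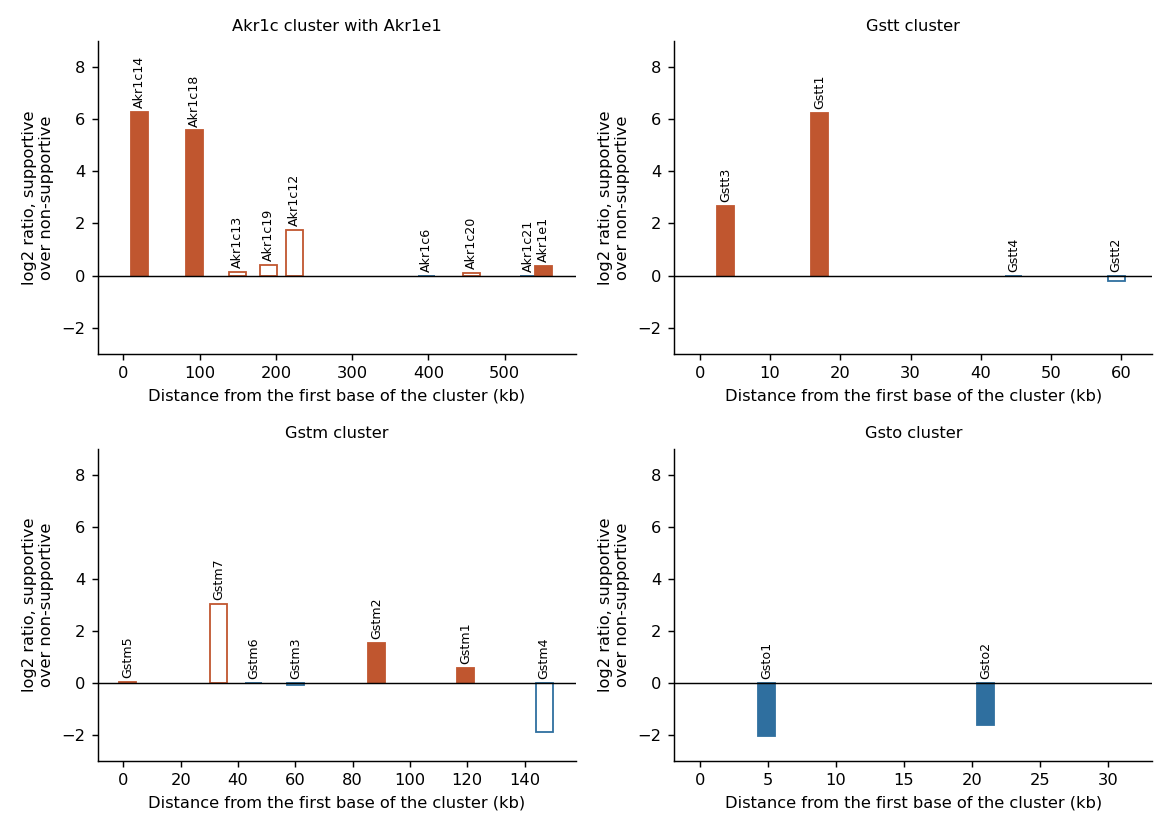
Log2 ratio of supportive over non-supportive RPKM (vertical) of each gene in the Akr1c, Gstt, Gstm and Gsto clusters, placed by its distance from the first base of the cluster (horizontal, kb). Orange bars are above 0 and blue bars below. Filled bars reach the minimum RPKM of 1, open bars do not, and genes without a read stand at 0; the 2 highest bars of the Akr1c panel, 6.28 and 5.58, lie side by side at its left end.

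A further 22 members had reads but no RPKM of 1, and no call was made for them. Of these, 6 had a log2 ratio of at least 1 in size, and they are named here after their values were seen. Gstm7 had 127 reads in supportive and 2 in non-supportive ISEMFs (61.7-fold, 16.7 to 515), Akr1c12 had 70 and 14, and Aldh1a7 had 112 and 26. In the other direction, Gstm4 had 17 and 99 reads and Mgst2, of leukotriene C4 synthesis, 13 and 91. Aldh1b1, a mitochondrial aldehyde dehydrogenase, had no read in supportive and 61 in non-supportive ISEMFs, at least 20.9-fold lower when 3 reads are taken as the limit of a library at 0. In the Gstm cluster, Gstm7 and Gstm4 thus stood on opposite sides of 0.

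The pi class could not be followed. Gstp1, a transferase expressed in many tissues, had 25 and 18 reads, an RPKM of 0.465 and 0.344. The ratio of 1.35 had an interval from 0.707 to 2.63, so no difference was detectable from these few reads. Only 6.15% of its windows were unique, which limits its reads apart from depth. Aldose reductase (Akr1b3) had 44 and 22 reads, with 73.7% of windows unique, and the aflatoxin aldehyde reductase Akr7a5 had 37 and 44. The succinic semialdehyde dehydrogenase Aldh5a1 stood at 0.600 and 0.819. The 8 members without a read in either library were Akr1c6, Akr1d1, Aldh3a1, Aldh3b2, Gsta1, Gsta2, Gstp2 and Gstt4. Of these, 4 had under 80% unique windows, and for the other 4, Akr1c6, Akr1d1, Aldh3a1 and Gstt4, a count of 0 allows up to 3 reads per library.

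Because Nrf2 acts through the antioxidant response element, the 250 bases before each gene's start in RefSeq promoters (GRCm38.p6) were searched for TGACNNNGC on both strands. Promoters were found for 49 of the 59 members, 59 promoters in all, as some genes have several starts. The motif was in 6 of these (10.2%) and in 10.2% of 32851 promoters of all genes. Stretches around 5 of these matches are shown 5′ to 3′ on the gene's strand, with the match in capitals, to set them beside the measured levels.
Gsta3 (chr1:21240444-21240492, plus strand, 121 bases before the start): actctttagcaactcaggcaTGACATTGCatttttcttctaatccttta
Aldh9a1 (chr1:167349884-167349932, plus strand, 87 bases before): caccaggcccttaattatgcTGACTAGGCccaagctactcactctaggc
Gstm5 (chr3:107895792-107895840, plus strand, 42 bases before): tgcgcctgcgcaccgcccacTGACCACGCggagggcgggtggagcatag
Gstm7 (chr3:107931715-107931763, minus strand, 129 bases before): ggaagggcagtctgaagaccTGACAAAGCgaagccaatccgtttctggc
Mgst1 (chr6:138140451-138140499, plus strand, 56 bases before, match on the opposite strand): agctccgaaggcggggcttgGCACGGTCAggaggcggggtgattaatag
The 6th match was in Akr1cl, which had 1 and 7 reads. Members with a match lay on both sides of 0, with Gsta3 and Mgst1 lower, Aldh9a1 and Gstm5 under 2-fold, and Gstm7 with more reads in supportive ISEMFs. The core of the aryl hydrocarbon receptor's element, GCGTG, was in 11 of the 59 member promoters (18.6%) and in 28.2% of all.

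The rest of glutathione metabolism was compared from lists. Of 25 genes of glutathione synthesis, recycling and export, 19 were expressed, 1 was higher and 4 were lower, with a median log2 ratio of −0.02. Gclm, the modifier subunit of the rate-limiting enzyme of glutathione synthesis, was at 3.49 in supportive and 9.20 in non-supportive ISEMFs, and its catalytic partner Gclc at 9.69 and 14.9. The exporter Abcc4 (1.50 and 4.19), the glutaredoxin Glrx5 (6.94 and 17.2), which had the highest RPKM of this list in either library, and Pgd of the pentose phosphate pathway (4.44 and 9.21) were lower too, but Pgd was under 2-fold under each of the 3 other scalings, which left 4 genes past 2-fold. Chac1, which degrades glutathione, was higher (8.94 and 2.77). The share past 2-fold was 26.3%, closer to the background of 18.2% than that of the members. By direction, 21.1% were lower, against 8.98% of all genes, and 5.26% were higher, against 9.25%.

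Among 25 genes of peroxide removal and the thioredoxin system, 19 were expressed, 1 was higher, 3 were lower and the median was −0.67. The 4 past 2-fold made 21.1%, near the background of 18.2%. By direction, 15.8% were lower, against 8.98% of all genes, and 5.26% were higher, against 9.25%. Peroxiredoxins Prdx2 (8.51 and 20.1) and Prdx6 (4.90 and 14.5) and superoxide dismutase Sod1 (56.2 and 122) were lower. Gpx7, a peroxidase of the endoplasmic reticulum, was higher (4.93 and 1.60). Gpx1, the glutathione peroxidase of highest level, was at 157 and 270, which is under 2-fold. Gpx3, Srxn1 and Txn1 stood just under the threshold on the lower side, with log2 ratios of −0.999, −0.992 and −0.963. The nearest on the higher side was Prdx4, at 0.81. A pseudocount of 0.001 gave 5 genes past 2-fold.

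The Nrf2 list held 19 genes of the factor, its partners and some of its targets. Members and genes of the 2 lists above were not part of it, so any target placed there was not counted here. Of the 19, 18 were expressed, 0 were higher and 3 were lower, with a median of −0.27. The share past 2-fold, 16.7%, was near the background of 18.2%. By direction, 16.7% were lower, against 8.98% of all genes, and 0 were higher, against 9.25%. The epoxide hydrolase Ephx1 (40.7 and 20.4) stood at the threshold, with a log2 ratio of 0.997, and counted as higher under each of the 3 other scalings and with a pseudocount of 0.001, which gave 4 genes past 2-fold. Nfe2l2, which encodes Nrf2, was at 22.2 and 23.6 and its classical target Nqo1 at 5.82 and 7.13. Heme oxygenase Hmox1 (8.47 and 26.4), Taldo1 (2.53 and 7.02) and Cbr3 (0.682 and 1.77) were lower. Fth1, a ferritin chain, had the highest level, 767 and 693.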

How the data were processed

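Read counts and RPKM per gene were taken from the table of all genes deposited by the authors. Per the paper's methods and the submitters' processing notes, 50-base single-end reads were aligned to mm9 with TopHat2 2.0.4, with 2 mismatches allowed and unique hits kept, and counted with HTSeq 0.5.4p3. The counts deposited by the authors are whole reads per gene, and RPKM, also deposited by the authors, scales them by exon length and library size (71463423 and 69449374 reads). The Ensembl release and the strand setting are not given in the sources used here, so overlapping genes remain uncertain. The authors' log2 ratio and DESeq p-values hold their findings and were not used, nor was their table of Wnt genes.

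Log2 ratios used RPKM plus 0.1, calls a minimum RPKM of 1 in either library and 2-fold. Intervals of ratios are exact Clopper-Pearson intervals (95%) of the share of reads, and a library at 0 was set to 3 reads. Members and lists were chosen with earlier results of these data known. Named members are those past 2-fold, those at an RPKM of 10 or more and the highest of each subfamily; of other lists, genes past 2-fold and the highest. Aox2 was in a list but not matched. Gene coordinates and transcripts are GENCODE vM1 (NCBIM37), promoters RefSeq (GRCm38.p6). On counts of 9110 genes simulated with counting error only, 95.2% of intervals held the true ratio. The intervals are built for that error, so this checks their computation and not the spread between cultures. Alternatives tried were a 4-fold threshold, an RPKM minimum of 5 or none, pseudocounts of 0.001 and 1, whole intervals past 2-fold, TMM factors (edgeR 4.0.16), size factors (DESeq2 1.42.0), a median ratio rescaled to 0, and leaving out members over 90% identical in protein or, added after the data were seen, under 80% unique. With 1 library per population, edgeR and DESeq2 gave scaling factors only and no test. Scripts ran in R 4.3.3 and Python 3.11.15 with scipy 1.17.1, numba 0.67.0, Biopython 1.88, pandas 2.3.3, numpy 2.4.6 and matplotlib 3.10.9.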

Additional observations from a re-analysis of the deposited data

How the results depend on the processing

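Of 100 values recomputed under the alternatives for counts, medians, family sums and the background, 84 stayed within the limits set for them, 16 moved and 0 reversed. With a pseudocount of 1, 9 of the 29 members passed 2-fold, 3 of them lower, against 12.25% of all genes. The short-chain and alcohol list then had 1 gene past 2-fold. With a minimum RPKM of 5, 7 members passed, 5 higher and 2 lower, against 17.7% of all genes, and the short-chain list had 0. Without a minimum, the median of the members with a read was 0.12. With a 4-fold threshold, 8 members passed, 5 higher and 3 lower, against 6.62% of all genes, the glutathione, peroxide and Nrf2 lists had 0 each and the short-chain list 1. These follow from a stricter or looser count by construction. The 3 scaling alternatives left the counts of 15, 9 and 6 unchanged. Leaving out the 6 members over 90% identical to another could not change them, as all of these were under the minimum RPKM. Without the members under 80% unique, 13 passed, 7 higher and 6 lower. The scalings took the glutathione list from 5 to 4 genes past 2-fold and the Nrf2 list from 3 to 4. No member past 2-fold changed sign under the scalings and pseudocounts, whereas Gstz1, at −0.03, moved to 0.02, 0.01 and 0.04 with TMM factors, size factors and the rescaled median. No paired analysis was possible because each population has 1 library. Depth limits members with few reads in both libraries, such as Gstt2 with 10 and 13. Gstp1, with 25 and 18, is limited by its 6.15% of unique windows as well.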

Other observations

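Of 20 genes of short-chain reductases and alcohol and aldehyde oxidation, 19 were found and 9 were expressed, of which 3 were higher in supportive ISEMFs (33.3%, against 9.25% of all genes) and 0 lower (against 8.98%), with a median log2 ratio of 0.12. Cbr2, a carbonyl reductase, had 552 reads in supportive and 3 in non-supportive ISEMFs, a ratio of 179 (counting interval 60.9 to 870). Aldehyde oxidase Aox1 was at 1.46 and 0.503 and Dcxr, a xylulose reductase, at 1.14 and 0.466. Adh5, the alcohol dehydrogenase of highest level, was at 14.1 and 18.6.

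Of 7 genes of the aryl hydrocarbon receptor pathway, 4 were expressed and 1 passed 2-fold (25%, against 18.2% of all genes). The receptor itself, Ahr, was higher in supportive ISEMFs, at 5.40 and 1.16, with 2515 and 526 reads. Its partner Arnt was at 7.69 and 5.52. The target Cyp1b1 was at 83.5 and 50.7, and Cyp1a1 had 0 and 13 reads.

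Of the retinaldehyde dehydrogenases outside the rule, Aldh1a1 had 2694 and 568 reads and was 4.61-fold higher in supportive ISEMFs (4.21 to 5.05). Aldh1a3, with 95 and 405 reads, was 4.39-fold lower, and Aldh1a2 stayed under the minimum RPKM with 22 and 142 reads.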
